A study of Mus musculus with 4 samples.

Results

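The Fos family, Atf3 and their partners in AP-1 dimers were followed in the mouse dentate gyrus after electroconvulsive stimulation (ECS), an electrical stimulus that evokes a seizure. The group consists of 10 genes of 18010 tested, chosen by symbol among genes that the array's probeset list covers: Fos, Fosb, Fosl1, Fosl2, Atf3, Batf, Batf3, Jdp2, Maff and Mafk. All 10 had at least 3 probesets (short exon segments that the array reads separately), 49 of 229712 in all, and no filter on low values was applied. The single-exon genes Jun, Junb and Jund have no probeset and were not analysed here.

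The ECS group held 2 exon arrays from mice 4 h after a 1.0 s train of 0.3 ms pulses (100 Hz, 18 mA), and the sham group 2 arrays from mice 4 h after sham treatment. All mice were wild-type male C57/Black6 animals of 8 weeks, and the dentate gyrus was microdissected out of the hippocampus. The labels call the arrays biological replicates without saying whether one held a single animal or a pool. The p-values and standard errors (SE) of limma rest on the spread between these arrays, drawn toward the spread typical of all genes. An SE is thus not the spread of that gene's own arrays alone. Only this time was sampled, so a response that ended before 4 h or began after it was not seen.

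AP-1 is a dimer of basic leucine zipper proteins. Fos proteins cannot pair with themselves and bind DNA with a Jun protein, and the leucine zipper sets which partners fit. In neurons, Fos and Fosb are immediate early genes: existing factors such as SRF, the ternary complex factors and CREB switch them on within minutes of activity, with no new protein needed, and the RNA of Fos is then lost quickly. Atf3, Jdp2, Batf and Batf3 form dimers with Jun proteins too and can repress AP-1 sites, whereas Maff and Mafk lack a transactivation domain and pair mainly with CNC factors such as Nfe2l2 and Bach1.

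At 4 h after ECS, Atf3 and Fosl2 were higher and no member was lower at an adjusted p under 0.05. These 2 of 10 stand against 0.500% of all genes called higher and 0.194% called lower. Atf3 was 4.29-fold and Fosl2 2.26-fold above sham. With 1 array left out, the differences were 1.93 to 2.27 for Atf3 and 1.07 to 1.28 for Fosl2 on the log2 scale. Both calls depended on having all arrays, as did most calls over all genes. Fosb (2.26-fold), Fos (1.70-fold) and Batf3 (1.54-fold) were above sham on both ECS arrays but missed the threshold, and Fosl1, Batf, Jdp2, Maff and Mafk lay within 1.17-fold of sham. In all, 5 members were at least 1.5-fold higher, where 1.52% of all genes were, and none was at least 1.5-fold lower, where 1.49% of all genes were. At an unadjusted p under 0.05, 5 members were higher and 0 lower by limma, beside 6.39% of all genes higher and 10.5% lower. The median difference of the 10 members was 0.38 on the log2 scale, beside -0.04 over all genes. The members were chosen with earlier results of these data known, so these comparisons with all genes are descriptive and test nothing.

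**Figure D1:**
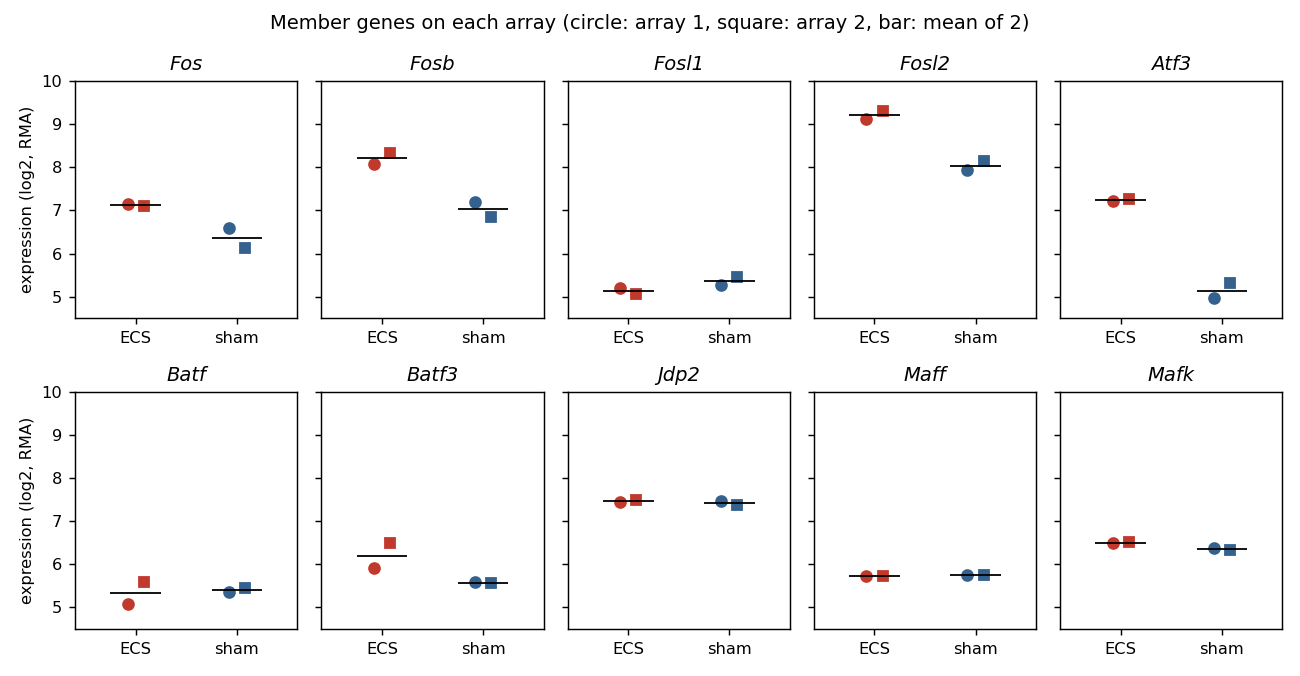
Expression of each member (log2, RMA scale) on the 2 ECS and the 2 sham arrays, with a bar at each group's mean. Atf3, Fosl2 and Fosb show the widest gaps between groups, and the Batf and Jdp2 points of the groups overlap. Heights of different genes are not comparable, since probesets differ in brightness.

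Atf3 encodes a stress- and injury-inducible factor of the ATF/CREB family. On the log2 scale it read 7.22 on ECS 1 and 7.25 on ECS 2, against 4.97 on sham 1 and 5.30 on sham 2. Both ECS arrays lay above both sham arrays by at least 1.92. The means were 7.24 ± 0.02 in ECS and 5.14 ± 0.24 in sham (SD, n = 2 each), a difference of 2.10 ± 0.13 (SE; 95% interval 1.76 to 2.44, adjusted p = 0.0127 by limma). By size this was the number 4 increase of all 18010 genes. The sham mean lies below 5.62, the 25th percentile of gene means on these arrays, and signal over background was not measured, which limits how exactly the fold and the rank are known.

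Fosl2 encodes FRA2, a Fos protein that, like FRA1, lacks the strong transactivation domain of FOS. It read 9.12 and 9.30 on ECS 1 and ECS 2, against 7.93 on sham 1 and 8.14 on sham 2. The groups did not overlap and were 0.98 apart at their closest. The difference was 1.17 ± 0.12 (SE; 95% interval 0.87 to 1.48, adjusted p = 0.0379 by limma). The call was lost with replicate number as a block (adjusted p = 0.0586) and with any 1 array left out (adjusted p of 0.0908 to 0.154).

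Fosb encodes both full-length FOSB and, by splicing, the truncated and long-lived delta-FOSB. The probeset list names 1 Fosb transcript, so these forms were not told apart. Fosb read 8.08 on ECS 1 and 8.34 on ECS 2, against 7.20 on sham 1 and 6.86 on sham 2. Its difference of 1.18 ± 0.16 (SE; 95% interval 0.77 to 1.58) was as large as that of Fosl2, but its arrays spread more and the adjusted p was 0.0619 by limma. Fosb passed with limma's trend and robust options (adjusted p = 0.00939), which called 2.03% of all genes higher, and without the dimmest 25% of genes (adjusted p = 0.0238), where 1.79% of the genes left were called higher. Its adjusted p was 0.0966 to 0.192 with 1 array left out and 0.131 with replicate number as a block.

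Fos, the prototype of the family and a standard marker of recent neuronal activity, read 7.14 on ECS 1 and 7.11 on ECS 2, against 6.60 on sham 1 and 6.12 on sham 2. The sham arrays differed more from each other than the ECS arrays did. The difference was 0.76 ± 0.17 (SE; 95% interval 0.33 to 1.20, adjusted p = 0.141 by limma). Without sham 1 it was 1.01, and without sham 2 it was 0.52.

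Fosl1 encodes FRA1, a Fos protein without the strong transactivation domain of FOS. It read 5.21 on ECS 1 and 5.07 on ECS 2, against 5.26 on sham 1 and 5.45 on sham 2. The difference of -0.22 ± 0.11 (SE, adjusted p = 0.388) carries a further limit: 3 of the 4 Fosl1 probesets are also listed for Ccdc85b. The probeset listed for Fosl1 alone had 0.20 ± 0.25, so the sign depended on the shared probesets. No direction can be given for Fosl1.

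**Figure D2:**
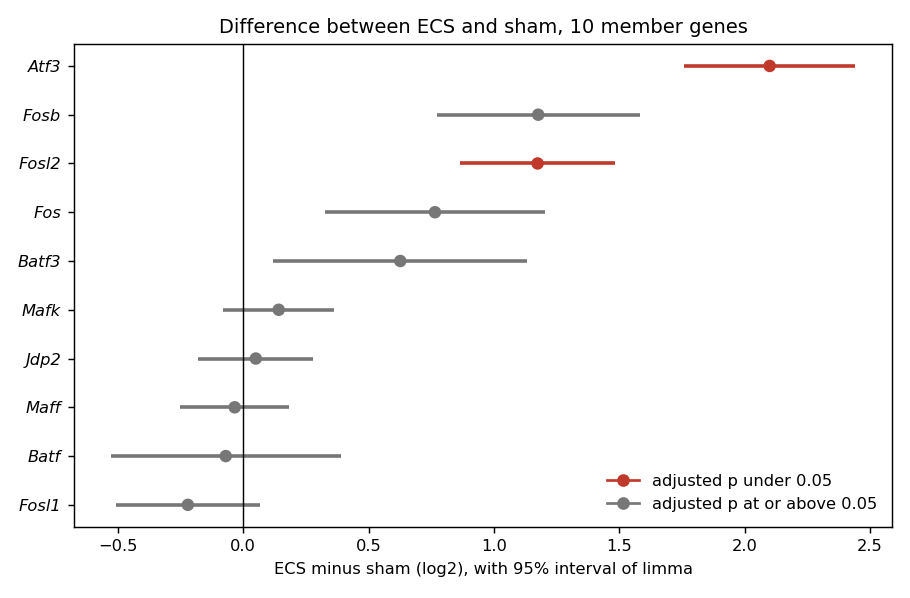
Difference between ECS and sham (log2) for the 10 members, with limma's 95% intervals; red marks an adjusted p under 0.05. The intervals of Atf3, Fosb, Fosl2, Fos and Batf3 lie above 0, and those of the other members include 0.

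Batf and Batf3 encode small zipper proteins best known from T cells and dendritic cells, where they pair with Jun and IRF proteins. Batf3 read 5.91 on ECS 1 and 6.49 on ECS 2, against 5.59 on sham 1 and 5.56 on sham 2. The ECS arrays were farther from each other than the lower of them was from sham. The difference was 0.63 ± 0.20 (SE; 95% interval 0.12 to 1.13, adjusted p = 0.224 by limma), and it was 0.34 without ECS 2 and 0.92 without ECS 1. Batf read 5.08 and 5.58 on ECS 1 and ECS 2, against 5.35 on sham 1 and 5.44 on sham 2. Its groups overlapped, and the difference of -0.07 had a 95% interval of -0.53 to 0.39. None of 8 T cell and dendritic cell markers passed, with 2 higher and 1 lower at an unadjusted p under 0.05; their mean level was 5.52 and 5.55 on the ECS arrays and 5.47 and 5.37 on the sham arrays.

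Jdp2, a repressor that pairs with Jun proteins, read 7.45 on ECS 1 and 7.50 on ECS 2, against 7.46 on sham 1 and 7.38 on sham 2. The groups overlapped, and the 95% interval of the difference ran from -0.18 to 0.28. In this fit a change beyond 1.21-fold upward thus lay outside the interval. The Jdp2 difference was 0.05 as deposited, 0.12 after quantile normalization and 0.12 after median centring, so this bound depended on the scaling. Maff read 5.73 and 5.72 on ECS 1 and ECS 2, against 5.75 on sham 1 and 5.76 on sham 2. Its difference of -0.03 had an interval of -0.25 to 0.18. Mafk read 6.49 on ECS 1 and 6.51 on ECS 2, against 6.38 on sham 1 and 6.33 on sham 2, a difference of 0.14 ± 0.09 (SE; 95% interval -0.08 to 0.36, adjusted p = 0.469 by limma). For Maff and Mafk the groups were apart, Mafk higher in ECS and Maff lower, but Maff turned to 0.0094 after quantile normalization and 0.038 after median centring, so no direction is given for Maff. Such separation is common here: 18.7% of all genes had both ECS arrays above both sham arrays and 30.7% had both below. Among the members these counts were 6 and 2.

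A gene value here is the mean over the gene's probesets. All 15 probesets of Atf3, Fosb and Fosl2 had both ECS arrays above both sham arrays, where 17.6% of all probesets did. Of the 34 probesets of the other 7 members, 6 did, and 4 had both ECS arrays below both sham arrays, where 25.6% of all probesets did. These counts follow in part from the gene values, which are means of the same probesets. No single probeset passed over all 229712 (0% called, limma), the lowest adjusted p among members being 0.389. At an unadjusted p under 0.05, 18 of the 49 member probesets were higher and 1, of Maff, was lower, beside 4.25% of all probesets higher and 5.92% lower. With limma's trend and robust options 11 member probesets passed, 6 of Fosl2, 2 each of Atf3 and Fosb and 1 of Fos, where 1.06% of all probesets were called higher.

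Within Atf3 the differences ran from 1.00 to 3.87. The steepest probeset, 5316231, read 8.01 on ECS 1 and 7.93 on ECS 2, against 3.53 on sham 1 and 4.66 on sham 2. The sham readings are low and far apart, so no fold is given for it. The shallowest, 4971867, read 6.89 and 6.82 on ECS 1 and ECS 2, against 5.79 on sham 1 and 5.92 on sham 2, which is 2.01-fold. The 4.29-fold value of the gene averages over this range.

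Of Atf3, Fosb, Fosl2 and Fos, Fosl2 had the narrowest range over probesets, with 5 of its 6 probesets between 0.93 and 1.18 and probeset 5616156 at 1.79. Fosb ran from 0.51 to 2.14. Its steepest probeset, 4776559, read 8.45 on ECS 1 and 8.89 on ECS 2, against 6.52 on sham 1 and 6.53 on sham 2. In Fos 1 probeset differed far more than the others: 5143783 read 7.45 on ECS 1 and 7.74 on ECS 2, against 6.08 on sham 1 and 5.67 on sham 2, a difference of 1.72 ± 0.22 (SE). The other 3 Fos probesets had 0.79, 0.30 and 0.25, and the last of these, 4482940, read 6.89 and 6.65 on ECS 1 and ECS 2, against 7.08 on sham 1 and 5.97 on sham 2, a wider gap within sham than between the groups. The files give no position for a probeset within its transcript, so these parts could not be assigned to exons. A test of unequal change between a gene's probesets, limma's diffSplice, was tried and dropped because it made many false calls on simulated data, so the differences between probesets stand as values without a test.

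**Figure D3:**
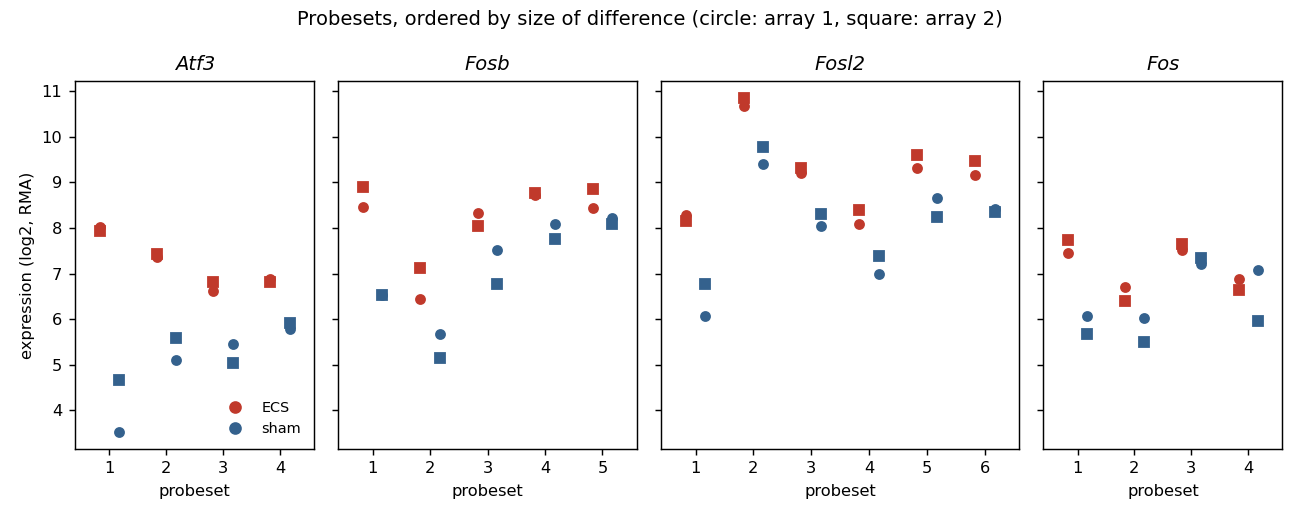
Probeset values (log2, RMA scale) for Atf3, Fosb, Fosl2 and Fos on the ECS and sham arrays, ordered within each gene by the size of the difference. All Atf3, Fosb and Fosl2 probesets have both ECS arrays above both sham arrays; in Fos the groups overlap in 1 of 4.

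Batf3 had 2 probesets with both ECS arrays above both sham arrays, at 1.21 and 0.93, and 2 with overlap, at 0.25 and 0.12. Among the 22 probesets of Batf, Jdp2, Maff and Mafk, 19 overlapped between groups and the differences ran from -0.74 to 0.62, with a median of 0.00. The largest of these decreases was 1 of 8 Maff probesets and the largest increase was 1 of 5 Mafk probesets.

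Some members are neighbours in the genome. In the coordinates of the probeset list, whose build is not named, Fos (chr12:86814851-86818219), Jdp2 (chr12:86940366-86980828) and Batf (chr12:87027670-87050037) follow one another on the plus strand with no other measured gene between them. Fos ends 209.4 kb before Batf begins. Their differences were 0.76, 0.05 and -0.07. Batf3 (chr1:192922293-192932822, plus strand) and Atf3 (chr1:192994176-193007212, minus strand) are 61.4 kb apart and differed by 0.63 and 2.10. Fosb lies at chr7:19888045-19895394 on the minus strand. On the plus strand are Fosl2 (chr5:32438845-32460207), Mafk (chr5:140267490-140278606), Maff (chr15:79178108-79189506) and Fosl1 (chr19:5447698-5455938). Fos, Fosb, Fosl1, Fosl2, Atf3 and Jdp2 have 4 exons in the list and Batf, Batf3, Maff and Mafk have 3.

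The 250 bases before the transcript start are printed for the 4 members with the largest differences and for a start of Maff that holds a full CREB site, because CREB and SRF sites are the textbook route from neuronal activity to Fos. The sequences are RefSeq's on GRCm38.p6, written 5′ to 3′ on the gene's strand. They span chr1:191183334-191183583 (Atf3, minus strand), chr7:19310046-19310295 (Fosb, minus strand), chr5:32136222-32136471 (Fosl2, plus strand), chr12:85473640-85473889 (Fos, plus strand) and chr15:79347270-79347519 (Maff, plus strand, 1 of 3 starts). Capitals mark the CREB site TGACGTCA or its core TGACGT, read on both strands.
Atf3: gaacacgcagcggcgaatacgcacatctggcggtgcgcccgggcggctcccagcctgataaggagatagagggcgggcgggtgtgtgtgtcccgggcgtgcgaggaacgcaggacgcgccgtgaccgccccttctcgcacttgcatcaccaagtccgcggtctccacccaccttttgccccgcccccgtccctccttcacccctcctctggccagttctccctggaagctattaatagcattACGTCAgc
Fosb: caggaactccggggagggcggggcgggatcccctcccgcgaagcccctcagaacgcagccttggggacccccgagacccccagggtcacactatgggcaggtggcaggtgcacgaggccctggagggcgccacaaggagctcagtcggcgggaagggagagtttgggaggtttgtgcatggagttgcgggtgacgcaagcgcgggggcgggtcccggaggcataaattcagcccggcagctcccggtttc
Fosl2: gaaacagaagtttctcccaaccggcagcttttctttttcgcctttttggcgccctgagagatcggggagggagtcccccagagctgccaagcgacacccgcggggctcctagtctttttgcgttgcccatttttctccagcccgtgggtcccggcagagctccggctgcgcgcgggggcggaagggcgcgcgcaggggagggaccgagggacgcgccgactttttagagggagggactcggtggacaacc
Fos: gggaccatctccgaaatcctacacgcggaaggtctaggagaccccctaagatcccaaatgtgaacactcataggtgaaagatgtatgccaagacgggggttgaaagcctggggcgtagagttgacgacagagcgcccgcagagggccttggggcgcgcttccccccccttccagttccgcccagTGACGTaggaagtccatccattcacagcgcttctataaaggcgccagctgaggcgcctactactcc
Maff: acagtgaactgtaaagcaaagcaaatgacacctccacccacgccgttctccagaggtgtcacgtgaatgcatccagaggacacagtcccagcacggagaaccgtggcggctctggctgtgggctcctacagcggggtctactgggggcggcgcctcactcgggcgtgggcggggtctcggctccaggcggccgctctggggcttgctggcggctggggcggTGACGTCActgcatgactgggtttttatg

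The core TGACGT was found 8 to 3 bases before the Atf3 start, on the opposite strand, and 66 to 61 bases before the Fos start. The windows of Fosb and Fosl2 did not hold these letters in full. Shorter or inexact forms of the core were not searched for, so a partial match there is not marked. The full site TGACGTCA, which contains the core on either strand, was found once, before the Maff start shown. Over all 13 windows of the 9 members with an entry, 5 held the core, those of Atf3, Fos and Batf and 1 each of Jdp2 and Maff. Of 32851 windows of the same length in the whole table, 6.47% held the core and 1.55% the full site. The AP-1 site TGACTCA, which 4.46% of all windows held, was not found in a member's window. A CArG box, the SRF site that 1.47% held, was not found there either. Bases farther upstream were not searched, so sites there would have been missed. The members with the core thus include Atf3 and Fos as well as Batf, Jdp2 and Maff, which lay within 1.17-fold of sham. A match is a string of letters and was not tested as a binding site.

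The genes whose values over the 4 arrays were most like those of Atf3, each centred on its own mean, were Gadd45b, a stress-response gene, Klf10, a zinc finger factor gene, and Cenpa, which encodes a centromeric histone, at root mean square distances of 0.10, 0.18 and 0.19 on the log2 scale. Their differences were 2.19, 1.81 and 1.90, and all 3 passed (adjusted p = 0.0125, 0.0125 and 0.0127 by limma). With 1 array left out, Gadd45b passed without sham 1 alone, and Klf10 and Cenpa in none of the 4 fits (adjusted p up to 0.0567, 0.0619 and 0.0619). With 4 arrays in 2 groups, likeness mostly means a similar difference.

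The genes around AP-1 were read from lists. Among the 14 measured of 18 CREB, ATF and C/EBP factors none passed, and 3 were higher and 0 lower at an unadjusted p under 0.05 by limma. Their median difference was 0.13, beside -0.04 over all genes. Atf4, which activates Atf3 in the integrated stress response, had 0.33 ± 0.09 (SE, adjusted p = 0.188), and Atf7 had -0.20. Of 16 measured genes of that stress response none passed, with 1 higher and 1 lower at an unadjusted p under 0.05 and a median of -0.06. Stc2 had the lowest difference there, -0.30.

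Of the 28 measured of 29 kinases and factors upstream of Fos and Jun, none passed; 2 were higher and 4 lower at an unadjusted p under 0.05 by limma, and the median was -0.01. The extremes were Cop1, which encodes a ubiquitin ligase that targets Jun proteins, and Elk1, a ternary complex factor at the Fos promoter. Cop1 read 8.80 on ECS 1 and 8.71 on ECS 2, against 8.00 on sham 1 and 8.12 on sham 2 (difference 0.70 ± 0.10, SE, adjusted p = 0.0653). Elk1 read 9.56 and 9.54 on ECS 1 and ECS 2, against 10.1 on sham 1 and 10.2 on sham 2 (-0.59 ± 0.09, SE, adjusted p = 0.0784). Neither gene's groups overlapped, and neither passed.

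Among the 8 measured of 11 partners of small Maf proteins none passed, with 1 higher and 0 lower at an unadjusted p under 0.05. That 1 was Bach1, a repressor that binds DNA with a small Maf protein, at 0.68 ± 0.10 (SE, adjusted p = 0.0784 by limma); Nfe2 was lowest at -0.29 ± 0.30. Of 17 antioxidant genes that Nfe2l2 and small Maf proteins are known to activate, Srxn1 rose and none fell. Srxn1, which encodes the enzyme that repairs oxidised peroxiredoxins, read 9.77 on ECS 1 and 9.71 on ECS 2, against 8.15 on sham 1 and 8.43 on sham 2 (2.74-fold, adjusted p = 0.0227). The median of the list was -0.0049, with 2 genes higher and 1 lower at an unadjusted p under 0.05. The 2 higher were Srxn1 and Hmox1, the latter at 0.93 ± 0.16 (SE, adjusted p = 0.0951 by limma). The 1 lower was Nqo1, another classical target, at -0.52 ± 0.11 (SE, adjusted p = 0.129). With replicate number as a block, the adjusted p of Srxn1 was 0.0533, and with 1 array left out it was at least 0.0539.

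Of 23 genes listed as AP-1 or delta-FOSB targets, Nptx2 rose, none fell and 22 did not pass. The list's median was -0.05. At an unadjusted p under 0.05 by limma, 5 were higher and 4 lower. The higher ones included Cdkn1a (1.09 ± 0.16, SE, adjusted p = 0.0740) and Vgf (0.75 ± 0.10, SE, adjusted p = 0.0589). Nptx2, which encodes a secreted pentraxin that clusters glutamate receptors, read 9.22 on ECS 1 and 9.15 on ECS 2, against 7.31 on sham 1 and 6.95 on sham 2 (difference 2.06 ± 0.14, SE, adjusted p = 0.0154). With 1 array left out, Nptx2 passed without sham 1 alone (adjusted p of 0.0490 to 0.0698). Penk, an enkephalin precursor gene read by 1 probeset, was lowest at -0.56 ± 0.13 (SE, adjusted p = 0.144). None of the 15 measured of 20 genes that accompany Atf3 after axon injury passed, with 1 higher and 1 lower at an unadjusted p under 0.05. The neuropeptide gene Gal had 0.44 ± 0.11 (SE) and Csf1, a growth factor for microglia, -0.36 ± 0.12 (SE), and the median was 0.08.

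**Figure D4:**
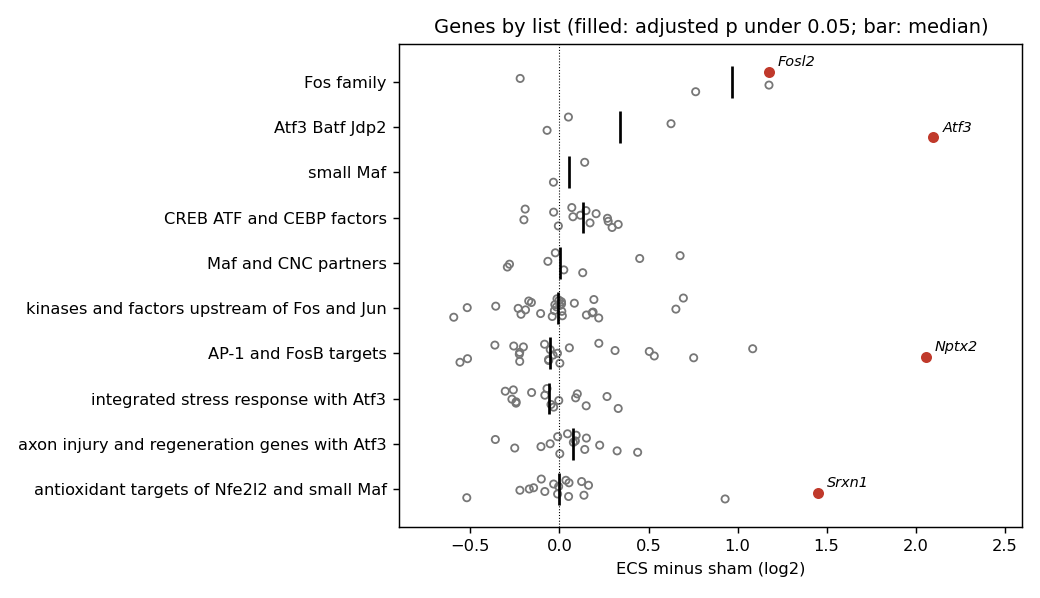
Difference between ECS and sham (log2) for each measured gene of the member groups and of the lists around them, with a bar at the median. Filled points passed an adjusted p of 0.05: Atf3, Fosl2, Nptx2 and Srxn1.

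In bulk tissue, a lower share of a cell type and less RNA per cell cannot be told apart, and other markers moved between arrays as well. Prox1, the granule cell transcription factor gene, averaged 9.57 on ECS arrays and 9.35 on sham arrays, a difference that did not pass (adjusted p = 0.325). Among 8 granule cell markers Tdo2 and Dsp fell, by 2.86 and 1.37 on the log2 scale (adjusted p = 0.0125 and 0.0195 by limma). At an unadjusted p under 0.05, 0 of these markers were higher and 4 lower, Lct (-0.62) and Calb1 (-0.52) among them, and their median was -0.30. With 1 array left out, Tdo2 passed without sham 1 alone and Dsp in none of the 4 fits. The 4 measured blood markers, of which Hba-a1 and Hba-a2 share their probesets, had both ECS arrays above both sham arrays and none passed. At an unadjusted p under 0.05 by limma, 4 were higher and 0 lower, beside 6.39% of all genes higher and 10.5% lower. Their median difference was 0.79, with mean levels of 10.2 and 9.91 on ECS arrays and 9.03 and 9.57 on sham arrays. The 8 choroid plexus markers averaged 6.69 and 6.33 on ECS arrays, 6.51 on sham 1 and 7.93 on sham 2, where Ttr read 10.2. Without sham 2, Atf3 had 2.27, Fosl2 1.28, Fosb 1.00 and Fos 0.52. None of the measured markers of pyramidal and mossy cells (8), microglia (7), astrocytes (6), oligodendrocytes (6) or vessels (5) passed. At an unadjusted p under 0.05 by limma, 0 of these were higher, and Calcrl (-0.40), P2ry12 (-0.64) and Slco1a4 (-0.55) were lower. All 26 probesets of P2ry12 are also listed for another gene. Oligodendrocyte markers averaged 9.67 on ECS 1 and 9.16 on ECS 2, against 9.33 on sham 1 and 9.09 on sham 2. The part of granule cell and blood markers in the members' differences was not tested.

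The calls depended on having all arrays, for the members and for most other genes called. With 1 array left out, Atf3 had differences of 1.93 to 2.27 and adjusted p-values of 0.0490 to 0.0698, and Fosl2 had differences of 1.07 to 1.28. Atf3 passed without sham 1 alone, in a fit that called 0.0278% of all genes higher. With replicate number as a block Atf3 passed (adjusted p = 0.0366) and Fosl2 did not, where 0.144% of all genes were called higher. With the numbers crossed, a block chosen after seeing the data, Atf3, Fosl2 and Fosb passed, where 0.589% of all genes were called higher.

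**Figure D5:**
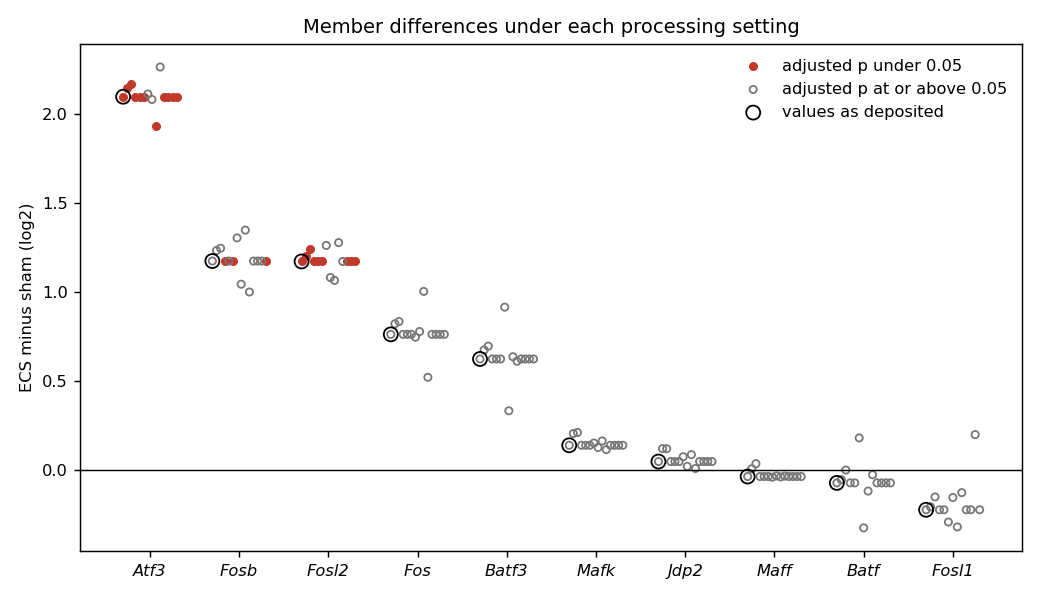
Member differences (log2) under each processing setting; filled points have an adjusted p under 0.05 and the black circle marks the values as deposited. Atf3, Fosb, Fosl2, Fos and Batf3 stay above 0 in every setting shown, and Maff, Batf and Fosl1 have points on both sides of 0.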

How the data were processed

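Gene expression was measured on 4 exon arrays from 1 µg of total RNA each, 2 per group. The deposited gene table and probeset table both hold log2 values made by the authors with RMA and the oligo package, per the submitters' processing notes; versions and genome build are not given in the sources used here. Each gene-level value equalled the mean of its transcript's probesets in the deposited probeset table within 5e-09, so arrays are named by their labels' number. The gene table's columns are named for 0 h and 4 h; by this identity the 0 h columns hold the arrays labelled sham, and the labels were followed. Rows without a probeset, listed at 0, were left out.

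RefSeq identifiers were matched without versions to RefSeq's GRCm38.p6 gene table (21929 of 22485 transcripts), and the transcript with the highest mean stood for a gene. ECS was compared with sham in limma 3.58.1 under R 4.3.3 (lmFit, eBayes, no block, two-sided) over 18010 genes, and likewise over 229712 probesets, with Benjamini-Hochberg adjustment and a threshold of 0.05. The fit had 2 residual and 3.23 prior degrees of freedom, and the number of arrays limits the precision. It was tested on simulated data. Exact permutation of 2 against 2 arrays cannot reach the threshold and was not used.

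The members and lists were chosen with earlier results of these data known. Named genes were all members and, from each list, up to 2 genes past the threshold in each direction or otherwise the largest difference in each direction. Some further list genes with an unadjusted p under 0.05, such as Hmox1, Cdkn1a and Lct, were named as well. Alternatives were each array left out, other scaling, filters, variance models, transcript choices, probesets of 1 gene only and a block on replicate number.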

Additional observations from a re-analysis of the deposited data

How the results depend on the processing

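The members' differences were recomputed in 128 combinations of member and setting. Of these, 112 kept their sign and side of the threshold, 8 lost the call (5 of Fosl2, 3 of Atf3), 3 gained it (all Fosb) and 5 turned sign without being called. The turns were Fosl1 over probesets listed for 1 gene only (0.20), Batf after median centring (0.0024) and without ECS 1 (-0.32 to 0.18 with each array left out), and Maff after quantile normalization (0.0094) and median centring (0.038). Leaving out dim genes removed Batf and Fosl1. For 20 other named genes, 221 of 258 values kept sign and side, 26 lost the call, 9 gained it (4 of Cop1, 3 of Bach1, 2 of Elk1) and 2 turned sign without sham 2, Nfe2 (-0.74 to 0.15) and Ttr (-3.94 to 0.11).

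Counts of calls moved more. Over all arrays 2 members, 90 higher genes and 35 lower genes were called by limma, and 268 genes were at least 1.5-fold lower. Leaving out 1 array gave 0 to 1 members, 0 to 5 higher genes, 0 to 2 lower genes and 295 to 454 genes past that fold, with the variance of the single remaining array taken from the other group. At an unadjusted p under 0.05 these fits held 4 or 5 members, 866 to 1122 higher genes and 1075 to 1715 lower genes. A block on replicate number called 1 member, 26 higher genes and 6 lower genes. Deviations of same-numbered arrays correlated at -0.20, and 2 pairs cannot settle a pairing. A crossed block called 106 higher genes and 48 lower genes. Filtering the dimmest 25% gave 242 higher against 216 lower genes, the trend and robust options 365 against 352, and a looser threshold of 0.10 gave 219 against 180. Median centring left 18 lower genes called and 173 past the fold. The trend and robust options called 11 member probesets, and each of the other probeset fits called 0. Fewer arrays or genes enter some of these fits; otherwise the cause was not tested. Signal over background was not measured, so how far dimness limits Batf, Fosl1 and the sham levels of Atf3 and Batf3, which also lie below the dim threshold, is unknown.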
